A study of Homo sapiens with 17 samples.

Results

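The genes followed here were 10 markers of endometrial receptivity and decidualization, LIF, HOXA10, HOXA11, FOXO1, WNT4, SPP1, PAEP, DKK1, IHH and NR2F2, of 60662 genes in the count table. They were chosen as known markers of these processes, with earlier results of these data known. RNA was sequenced from Ishikawa cells, a human line derived from an endometrial adenocarcinoma used as a stand-in for the epithelium of the endometrium, after 24 h of treatment. The 17 libraries, called biological replicates in their titles, fell into 6 groups. The control group (n = 3) received basal medium, Nap only (n = 2) a vehicle component that the labels name Nap and do not define, vehicle control (n = 3) Nap with ethanol, and P4 treated (n = 3) Nap with progesterone (P4). The protocol in the labels gives 70% ethanol and lists P4 at 0.1 and 1.0 mg/ml without saying which concentration was sequenced, while the legend to the sequencing experiment names a single concentration in μg/ml that is not in the labels. Ethanol is not named in the treatment label of the P4 treated libraries, so ethanol and P4 cannot be told apart in their comparison with vehicle control.

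The remaining 6 libraries came from cells given recombinant human PSAT1, an enzyme of serine synthesis, with or without P4, and their labels contradict each other. The 3 libraries whose columns are named R_PSAT1_P4 are called PSAT1 alone in their titles and treatment labels, and the 3 named R_PSAT1 are called PSAT1 with P4. They are given below by their column names only, as R_PSAT1_P4 and R_PSAT1 libraries, and which of them received P4 was not decided. All groups are cultures of a single line, so each p-value measures the spread between cultures of that line.

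Receptivity is the short period of the menstrual cycle in which the endometrium allows a blastocyst to attach, and it follows the rise of progesterone after ovulation. Progesterone acts through its receptor in the luminal and glandular epithelium, which secretes factors such as LIF, osteopontin (SPP1) and glycodelin (PAEP), and in the stroma, whose fibroblasts differentiate into decidual cells. IHH carries the signal from epithelium to stroma, where NR2F2, WNT4, HOXA10, HOXA11 and FOXO1 take part in decidualization, while DKK1 restrains Wnt signalling. Several of the 10 genes are therefore best known from stromal cells, which this epithelial line does not contain by label.

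Total counts per library ranged from 4999521 (vehicle control 1) to 19704493 (control 2). Levels are given as normalized CPM, read counts scaled to library size by the TMM method over all 17 libraries, and fold changes come from quasi-likelihood fits in edgeR, with p-values adjusted over all genes tested by the Benjamini-Hochberg method. The summed level of 6 epithelial markers was 933 to 1372 CPM across libraries, with EPCAM, CDH1, KRT8 and KRT18 highly expressed. Group means were 54.5 to 76.8 CPM for KRT19 and only 2.79 to 6.12 CPM for KRT7. Of 8 stromal or fibroblast markers, DCN had at most 2 counts in any library, whereas COL3A1 and VIM were expressed, and the summed level was 125 to 214 CPM. The epithelial sum was 933 to 1085 CPM in P4 treated against 1171 to 1175 CPM in vehicle control libraries. The stromal sum was 149.95 to 156 against 125 to 137 CPM. At an adjusted p under 0.05, 2 of the 6 epithelial markers were called higher and 3 lower, where 53% of all genes were called. Of 5 stromal markers tested, VIM was called higher (log2 fold change 0.75, SE 0.08) and 3 were called lower. The markers of each list thus moved in both directions. In R_PSAT1_P4 against R_PSAT1 libraries the epithelial sum was 969 to 1111 against 1139 to 1199 CPM, and the stromal sum 149 to 166 against 162 to 213 CPM. The part of these shifts in the results below was not tested. The immune markers summed to at most 1.05 CPM and the endothelial markers to at most 1.60 CPM, with CDH5 at 0 counts.

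The 10 genes separated into those that could be measured and those that could not. LIF, HOXA10, HOXA11, FOXO1 and SPP1 had at least 11 counts in every library and passed the filter on low counts in all comparisons. NR2F2 had between 4 and 14 counts and passed it in only 2 planned comparisons. DKK1, WNT4, IHH and PAEP passed in none, and these 4 genes were too low to measure at this depth. In level per kilobase of exon, the order in control cells was HOXA10 at 8.96, FOXO1 at 2.50, HOXA11 at 1.56, SPP1 at 1.55 and LIF at 1.08 CPM per kilobase, with DKK1 at 0.187 and NR2F2 at 0.0751.

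In P4 treated against vehicle control libraries 6 of the 10 genes were tested, of which 1 rose (LIF) and 2 fell (HOXA10 and HOXA11), where 53% of all genes tested were called, 26.6% higher and 26.5% lower. Against Nap only, 4 of 5 genes were called, LIF and FOXO1 higher and HOXA10 and HOXA11 lower, and 49.7% of all genes were called, 24.8% higher and 24.9% lower. Against control, the same 4 of 5 were called in the same directions, and 54.8% of all genes were, 26.8% higher and 28% lower. These 3 comparisons share the P4 treated libraries. Since about every other gene was called, the counts of called genes say little by themselves, and the size of each gene's difference is given below.

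**Figure D1:**
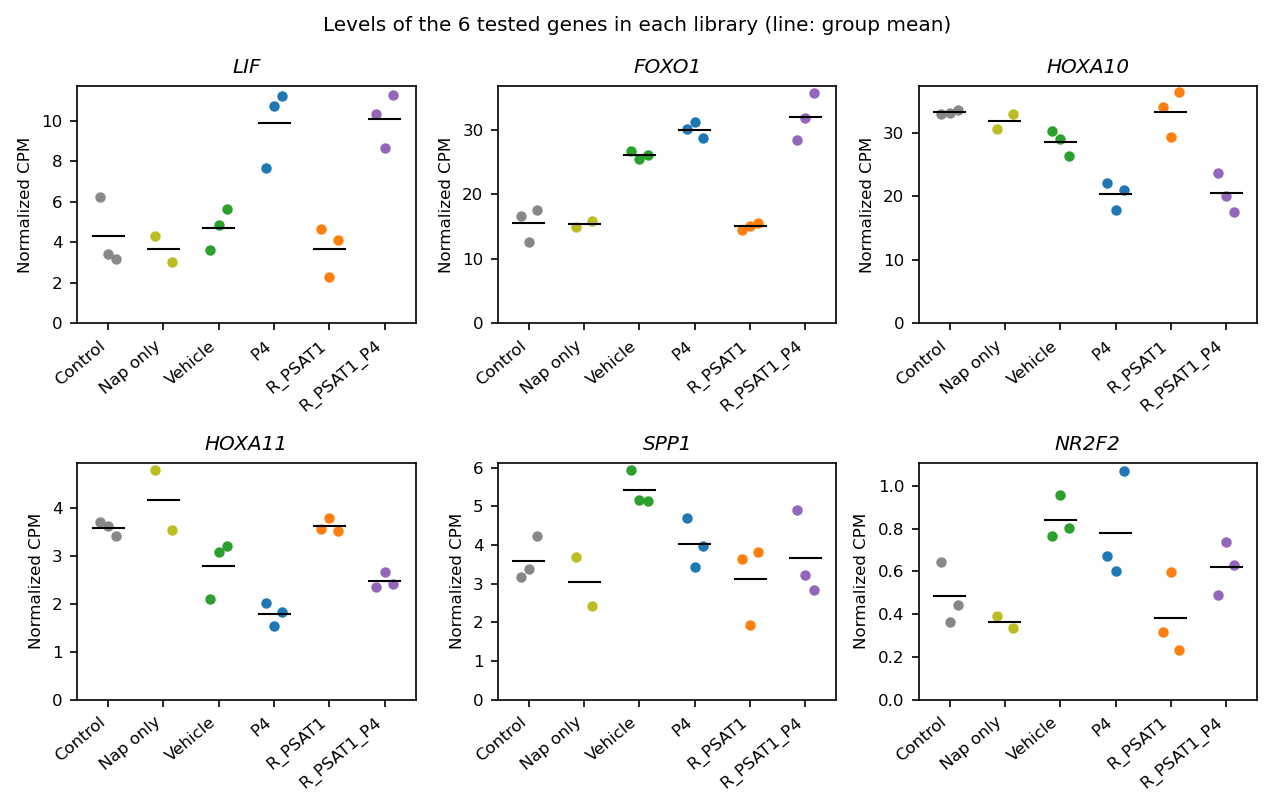
Normalized CPM (vertical axes, linear, starting at 0) of the 6 genes that were tested in at least 1 comparison, with a point for each library and a line at each group mean. LIF is higher and HOXA10 lower in the P4 treated and R_PSAT1_P4 libraries than in the other groups, whereas FOXO1 is also high in the vehicle control libraries.

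LIF (ENSG00000128342.5) encodes leukemia inhibitory factor, a cytokine of the interleukin-6 family secreted by the epithelium that blastocyst attachment requires in mice. The gene lies at chr22:30240447-30246851 on the minus strand of GRCh38, and antisense genes overlap it. LIF was at 3.64, 4.86 and 5.63 CPM in vehicle control libraries and at 7.68, 10.7 and 11.2 CPM in P4 treated libraries. All P4 treated libraries thus lay above all vehicle control libraries. LIF rose 2.00-fold (log2 fold change 1.00, SE 0.19, adjusted p = 0.00077 by edgeR).

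LIF was at 6.24, 3.43 and 3.19 CPM in control and at 4.32 and 3.02 CPM in Nap only libraries, which overlapped each other and the vehicle control libraries. Its rise in P4 treated libraries was 2.67-fold against Nap only (log2 fold change 1.42, SE 0.23) and 2.25-fold against control (1.17, SE 0.23). The vehicle control differed from control by a log2 fold change of 0.17 (SE 0.24), with an adjusted p of 0.65 by edgeR.

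FOXO1 (ENSG00000150907.9) encodes a forkhead transcription factor that is held out of the nucleus by AKT and that acts with the progesterone receptor in decidual cells. The gene lies at chr13:40469953-40666597 on the minus strand of GRCh38. LINC00598 overlaps it on the same strand and RLIMP1 on the other. FOXO1 was at 16.7, 12.6 and 17.5 CPM in control and at 15.01 and 15.8 CPM in Nap only libraries, but at 26.8, 25.6 and 26.1 CPM in vehicle control libraries. The vehicle control libraries were all above the control and Nap only libraries, and the P4 treated libraries, at 30.2, 31.2 and 28.7 CPM, were all above the vehicle control libraries. The step from vehicle control to P4 treated did not pass the test (log2 fold change 0.19, SE 0.09, adjusted p = 0.087 by edgeR).

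Whether FOXO1 was called therefore depended on the reference. Against Nap only, FOXO1 rose 1.91-fold in P4 treated libraries (log2 fold change 0.93, SE 0.12, adjusted p = 6.9e-05 by edgeR), and against control 1.901-fold. Of the 6 genes tested between vehicle control and control, FOXO1 and SPP1 were called, both higher, where 22.6% of all genes were called and 11.9% were higher. The 3763 calls behind that share fell to 2038 and 1908 without vehicle control 2 or 3. FOXO1 was 1.68-fold higher in vehicle control than in control (log2 fold change 0.75, SE 0.12, adjusted p = 0.00011 by edgeR). Of 5 genes tested between vehicle control and Nap only, a comparison added after the data were seen, the same 2 were called and 23.8% of all genes were, with a log2 fold change of 0.76 (SE 0.10) for FOXO1. Nap only and control differed in 0 of 5 genes and in 0% of all genes by edgeR, with 217 genes at an unadjusted p under 0.05 and 1 gene called by DESeq2.

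HOXA10 (ENSG00000253293.5) and HOXA11 (ENSG00000005073.5) encode homeobox transcription factors that pattern the reproductive tract and are needed in the uterus for implantation in mice. They are neighbours on the minus strand of GRCh38, at chr7:27170591-27180261 and chr7:27181510-27185223. HOXA10 overlaps HOXA9 on the same strand and HOXA10-AS on the other, and HOXA11 overlaps HOXA11-AS. The libraries were stranded but the strand setting of the counting is not stated. The counts of these overlapping genes, and of LIF and FOXO1, are therefore uncertain.

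HOXA10 was at 30.2, 29.02 and 26.4 CPM in vehicle control and at 22.0, 17.8 and 21.0 CPM in P4 treated libraries. The groups did not overlap, and HOXA10 fell to 0.707 of its vehicle control level (log2 fold change -0.50, SE 0.11, adjusted p = 0.0019 by edgeR). It was at 32.9, 33.1 and 33.6 CPM in control and at 30.6 and 32.9 CPM in Nap only libraries, so that the fall was larger against these references, with log2 fold changes of -0.74 (SE 0.11) and -0.68 (SE 0.12). Between vehicle control and control the log2 fold change was -0.23 (SE 0.09, adjusted p = 0.070 by edgeR).

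HOXA11 was lower in level than HOXA10 in every group. It was at 2.10, 3.09 and 3.22 CPM in vehicle control and at 2.02, 1.55 and 1.83 CPM in P4 treated libraries, and the lowest vehicle control library, the shallowest of the series, was close to the highest P4 treated library. HOXA11 fell to 0.606 of its vehicle control level (log2 fold change -0.72, SE 0.24, adjusted p = 0.025 by edgeR). This call was lost with DESeq2 (adjusted p = 0.18) and without vehicle control 2 or 3 (0.10 and 0.11) or P4 treated 2 or 3 (0.073 and 0.070). HOXA11 was at 3.71, 3.64 and 3.42 CPM in control and at 4.79 and 3.55 CPM in Nap only libraries, and its fall against these references was -1.02 (SE 0.23) and -1.23 (SE 0.26) in log2 fold change.

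**Figure D2:**
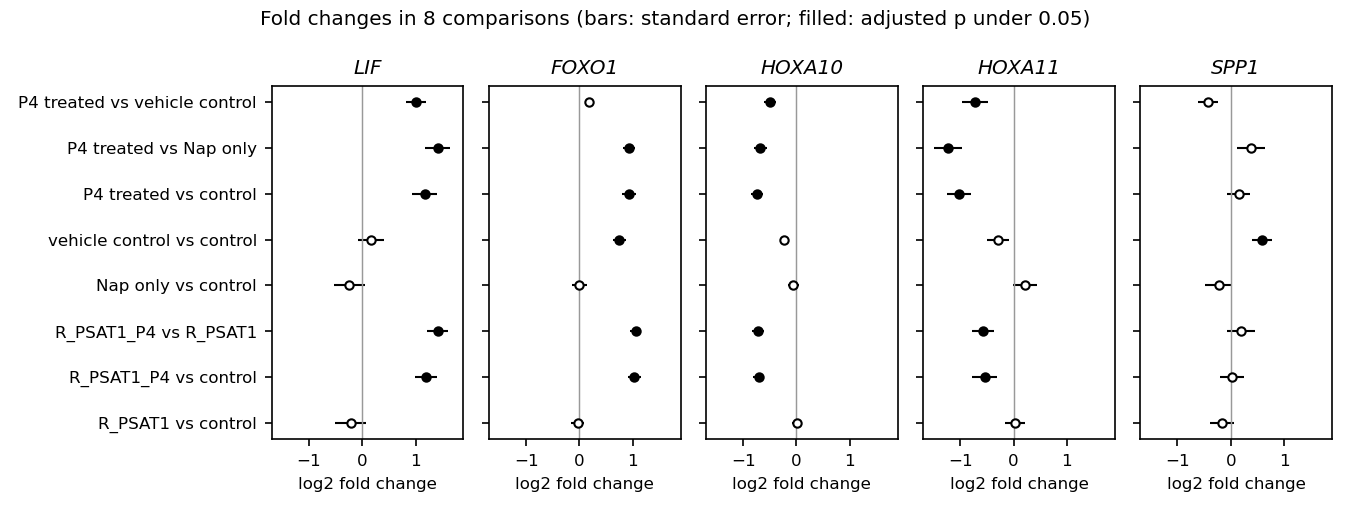
Log2 fold changes (horizontal axis) of the 5 genes tested in all of 8 planned comparisons (vertical axis), with standard errors as bars and filled points at an adjusted p under 0.05 by edgeR. FOXO1 is open against vehicle control at 0.19 and filled against Nap only and control at 0.93, whereas LIF and HOXA10 are filled against all 3 references.

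Promoter sequence is shown for HOXA11, the gene of the pair that fell whose window lies outside its own annotated exons, and for FOXO1, the gene whose call depended on the reference. In HOXA10, SPP1 and NR2F2 the window before the RefSeq gene start overlaps the gene's own annotated exons. Windows of 250 bases before the RefSeq start (GRCh38.p14) were matched for 9 of the 10 genes, LIF having no entry. They were searched on both strands for GTAAACA (FOXO site), AGAACA (the hexamer of progesterone response elements), the full palindromic progesterone response element, which contains the hexamer, TGACGTCA (cAMP response element) and TGATGCAA (C/EBP-ATF element). These are held by 2.98%, 12.4%, 0.00285%, 1.65% and 0.772% of 35116 promoters. The only match among the 9 windows was AGAACA in HOXA11, at bases -215 to -210 from the start, shown in capitals. A match of these letters is a description of the sequence and not a binding site. The windows are at chr7:27185233-27185482 and chr13:40666642-40666891, both read 5′ to 3′ on the minus strand.
HOXA11: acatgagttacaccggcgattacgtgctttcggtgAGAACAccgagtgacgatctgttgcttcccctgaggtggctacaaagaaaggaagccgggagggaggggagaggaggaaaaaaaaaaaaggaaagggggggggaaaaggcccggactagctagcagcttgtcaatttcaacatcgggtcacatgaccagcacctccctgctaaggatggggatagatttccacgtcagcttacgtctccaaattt
FOXO1: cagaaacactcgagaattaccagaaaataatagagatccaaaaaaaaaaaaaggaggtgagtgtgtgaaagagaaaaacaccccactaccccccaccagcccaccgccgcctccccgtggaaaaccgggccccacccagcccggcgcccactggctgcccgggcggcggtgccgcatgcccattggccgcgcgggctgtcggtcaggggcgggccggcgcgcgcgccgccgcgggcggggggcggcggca

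SPP1 (ENSG00000118785.14) encodes osteopontin, a secreted glycoprotein that binds integrins at the surface of the epithelium. The gene lies at chr4:87975650-87983426 on the plus strand of GRCh38. SPP1 was at 5.93, 5.16 and 5.15 CPM in vehicle control, 3.17, 3.38 and 4.23 CPM in control, 3.69 and 2.41 CPM in Nap only and 4.71, 3.43 and 3.96 CPM in P4 treated libraries. The vehicle control libraries were thus the highest of these 4 groups and overlapped none of them. SPP1 was 1.497-fold higher in vehicle control than in control (log2 fold change 0.58, SE 0.19, adjusted p = 0.031 by edgeR), a call that was lost with DESeq2 (adjusted p = 0.11) and without any single library of these groups except control 3 (adjusted p up to 0.090). Between P4 treated and vehicle control its log2 fold change was -0.42 (SE 0.19), which did not pass the test (adjusted p = 0.076 by edgeR), and against Nap only it was 0.38 (SE 0.26, adjusted p = 0.25 by edgeR).

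NR2F2 (ENSG00000185551.15) encodes COUP-TFII, a nuclear receptor of the uterine stroma that acts downstream of IHH, and lies at chr15:96325938-96340263 on the plus strand. It had 12, 7 and 6 counts in control, 5 and 5 in Nap only, 4, 13 and 10 in vehicle control and 7, 7 and 14 in P4 treated libraries. In CPM the means were 0.485 ± 0.145 (SD, n = 3) in control, 0.842 ± 0.102 (n = 3) in vehicle control and 0.780 ± 0.251 (n = 3) in P4 treated libraries. The vehicle control and P4 treated libraries overlapped (log2 fold change -0.13, SE 0.37, adjusted p = 0.79 by edgeR). The interval is wide, and a difference of moderate size was not detectable at this depth. Between vehicle control and control the log2 fold change was 0.81 (SE 0.40, adjusted p = 0.15 by edgeR).

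DKK1 (ENSG00000107984.10), a secreted inhibitor of Wnt signalling at chr10:52314296-52318042 on the plus strand, had more than 3 counts in 11 of 17 libraries. It had 4, 14 and 4 counts in control, 2 and 4 in Nap only, 0, 7 and 3 in vehicle control, and 2, 4 and 7 in P4 treated libraries. No order among these 4 groups could be read from counts of this size.

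WNT4 (ENSG00000162552.15), a Wnt ligand of the decidualizing stroma at chr1:22117305-22143969 on the minus strand, had 3, 1 and 0 counts in control, 2 and 1 in Nap only, 0, 1 and 1 in vehicle control and 2, 5 and 2 in P4 treated libraries. Only 3 of 17 libraries had more than 3 counts of WNT4. IHH (ENSG00000163501.7), the hedgehog ligand of the epithelium at chr2:219054420-219060467 on the minus strand, had at most 2 counts in any library and 8 counts in all 17 together. It had 0 counts in all 3 P4 treated libraries and 0, 2 and 2 counts in vehicle control libraries, and no fold is given because both groups are at or under 3 counts per library.

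PAEP (ENSG00000122133.17), which encodes glycodelin, the classical secretory product of progesterone-exposed glands, lies at chr9:135561756-135566955 on the plus strand. It had 0 counts in all 17 libraries. A count of 0 allows up to 3 counts, which is 0.574 CPM in the shallowest and 0.156 CPM in the deepest library, and this limit covers counting error only. PAEP was therefore not detectable in any group.

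**Figure D3:**
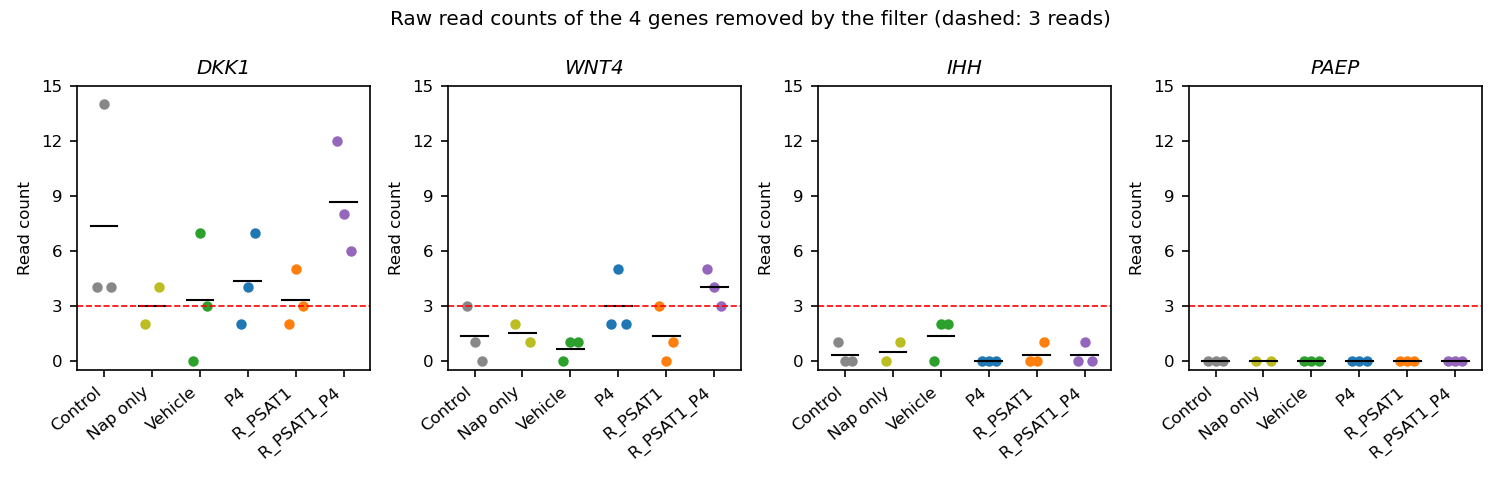
Raw read counts (vertical axes, not normalized for depth) of DKK1, WNT4, IHH and PAEP in each library, with a line at each group mean and a dashed line at 3 counts. PAEP is at 0 throughout, IHH never exceeds 2 counts, and only DKK1 is above 3 counts in more than a few libraries.

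In the libraries of cells given recombinant PSAT1, LIF was at 4.65, 2.26 and 4.12 CPM in R_PSAT1 and at 10.3, 8.65 and 11.3 CPM in R_PSAT1_P4 libraries. FOXO1 was at 14.5, 15.1 and 15.5 CPM in R_PSAT1 and at 28.5, 31.9 and 35.7 CPM in R_PSAT1_P4 libraries. Neither gene overlapped between the 2 groups of columns.

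HOXA10 was at 34.0, 29.2 and 36.4 CPM in R_PSAT1 and at 23.7, 20.1 and 17.6 CPM in R_PSAT1_P4 libraries. HOXA11 was at 3.57, 3.80 and 3.53 CPM in R_PSAT1 and at 2.36, 2.67 and 2.42 CPM in R_PSAT1_P4 libraries. Both were lower in every R_PSAT1_P4 library than in any R_PSAT1 library. SPP1, at 3.63, 1.93 and 3.83 CPM in R_PSAT1 and 4.91, 3.22 and 2.84 CPM in R_PSAT1_P4 libraries, overlapped.

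Between the R_PSAT1_P4 and R_PSAT1 libraries 4 of 5 genes were called, 2 in each direction, where 62.3% of all genes were, 30.7% higher and 31.6% lower. LIF was 2.66-fold higher in the R_PSAT1_P4 libraries (log2 fold change 1.41, SE 0.20, adjusted p = 6.3e-06 by edgeR). FOXO1 was 2.09-fold higher (1.06, SE 0.10, adjusted p = 2.5e-08 by edgeR). HOXA10 and HOXA11 were lower, with log2 fold changes of -0.73 (SE 0.11) and -0.57 (SE 0.20), the latter with an adjusted p of 0.019 by edgeR and 0.14 by DESeq2. It was 0.056, 0.052 and 0.051 without R_PSAT1_P4 library 1, R_PSAT1_P4 library 3 and R_PSAT1 library 2. By the column names, the log2 fold change of FOXO1 exceeded that between P4 treated and vehicle control by 0.89 (SE 0.15, adjusted p = 0.0013 by edgeR in a test chosen after seeing the data), where 1.29% of all genes were called. By the titles the fold changes between the 2 groups of columns turn in sign, and the difference for FOXO1 becomes -1.29 (SE 0.15).

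Against control, the R_PSAT1_P4 libraries differed in 4 of 5 genes, 2 in each direction, where 60.2% of all genes were called, 30% higher and 30.2% lower. Their log2 fold changes were 1.20 (SE 0.21) for LIF, 1.03 (SE 0.12) for FOXO1, -0.71 (SE 0.11) for HOXA10 and -0.55 (SE 0.23) for HOXA11, the last with an adjusted p of 0.038 by edgeR. The call of HOXA11 was lost with DESeq2 (adjusted p = 0.16), with no filter (0.068) and without any single library of these groups except control 3, with adjusted p up to 0.096. The R_PSAT1 libraries differed from control in 0 of 5 genes and in 0% of all genes, with 1004 genes at an unadjusted p under 0.05 and 0 called by DESeq2. Their log2 fold changes from control lay between -0.22 (LIF, SE 0.30) and 0.03 (HOXA11, SE 0.18).

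The genes too low to measure had at most 12 counts in any library of cells given PSAT1. DKK1 had 12, 8 and 6 counts in R_PSAT1_P4 and 2, 5 and 3 in R_PSAT1 libraries, and WNT4 had 5, 4 and 3 against 3, 0 and 1. NR2F2 had 5, 8 and 6 counts against 5, 9 and 4, IHH at most 1 count and PAEP 0. With no filter on low counts, the log2 fold change between R_PSAT1_P4 and R_PSAT1 libraries was 1.92 (SE 0.56, adjusted p = 0.0024 by edgeR) for DKK1. This value rests on 26 and 10 summed counts, and DKK1 stays among the genes too low to measure. No fold is given for WNT4, since its R_PSAT1 libraries are all at or under 3 counts.

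Across the 6 groups the P4 treated and R_PSAT1_P4 libraries had the 2 highest mean levels of LIF and FOXO1 and the 2 lowest of HOXA10 and HOXA11. For LIF, mean levels were 3.67 CPM in Nap only, 3.68 in R_PSAT1, 4.29 in control, 4.71 in vehicle control, 9.87 in P4 treated and 10.1 in R_PSAT1_P4 libraries, and the vehicle control and P4 treated libraries were the only neighbours that did not overlap. For FOXO1, R_PSAT1, Nap only and control libraries overlapped at means of 15.04 to 15.6 CPM, vehicle control stood between at 26.2 CPM, and P4 treated and R_PSAT1_P4 libraries overlapped at 30.02 and 32.0 CPM. For HOXA11, P4 treated libraries, at a mean of 1.80 CPM, did not overlap R_PSAT1_P4 libraries, at 2.48 CPM, which overlapped vehicle control libraries at 2.80 CPM. SPP1 kept no such order, with vehicle control highest at a mean of 5.41 CPM.

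The genes whose pattern over the 17 libraries was most like each measurable gene, by Pearson's r of log2(CPM + 0.5) over 15655 genes with a mean of at least 1 CPM, were MFGE8 (0.965), EPHA2 (0.959) and CD44 (0.955) for LIF. For FOXO1 they were AEBP2 (0.985), USP31 (0.980) and AGO3 (0.978). For HOXA10 they were CDK2AP1 (0.980), CDKN2AIPNL (0.978) and HIST1H2BJ (0.977), and for HOXA11 FAM86C2P (0.949) and NIT2 (0.922). SPP1 had CPNE2 (0.899), ZNF492 (0.807) and RHOB (0.801). Among the 5 genes themselves, r was 0.79 between LIF and FOXO1, 0.77 between HOXA10 and HOXA11 and -0.87 between HOXA10 and FOXO1. These values share the groups and libraries and are descriptions only.

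Lists of related genes were compared between P4 treated and vehicle control libraries, where 53% of all genes tested were called, 26.6% higher and 26.5% lower, and where the median log2 fold change was -0.01. Each count below stands against these shares. Of 18 genes of LIF and IL-6 family signalling, 14 were tested in P4 treated against vehicle control, 8 rose and 4 fell, with a median log2 fold change of 0.40. JAK1, the kinase bound to the gp130 receptor chain, went from 16.1 ± 2.22 to 39.1 ± 7.78 CPM (SD, n = 3; log2 fold change 1.26, SE 0.15), and PTPN11, a phosphatase of the pathway, rose by 0.48 on the log2 scale (SE 0.06). IL11RA, the receptor of interleukin-11, fell from 7.66 ± 0.297 to 2.98 ± 0.504 CPM (log2 fold change -1.37, SE 0.18), and the kinase TYK2 had a log2 fold change of -0.24 (SE 0.07). TYK2 did not pass the test against Nap only (-0.04, SE 0.10, adjusted p = 0.74 by edgeR) or control (-0.11, SE 0.10, adjusted p = 0.33). Its log2 fold change between vehicle control and Nap only was 0.21 (SE 0.07).

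The fall of HOXA10 and HOXA11 was shared by other genes of the cluster. Of 18 other HOXA genes, neighbouring noncoding genes and HOX cofactors, 12 were tested against vehicle control, 0 rose and 7 fell, with a median log2 fold change of -0.63, where 26.6% of all genes rose and 26.5% fell. HOXA7 went from 15.7 ± 0.874 to 8.12 ± 1.57 CPM (log2 fold change -0.98, SE 0.15). HOXA5, HOXA6 and HOXA13 also fell, with log2 fold changes of -1.47 (SE 0.22), -1.49 (SE 0.36) and -0.98 (SE 0.16). HOXA3 and HOXA9 did not pass the test, at -0.18 (SE 0.31) and -0.33 (SE 0.27). These HOXA genes were named after their values were seen, apart from HOXA7. HOXA10-AS, which shares its locus with HOXA10, had a log2 fold change of -0.83 (SE 0.22).

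**Figure D4:**
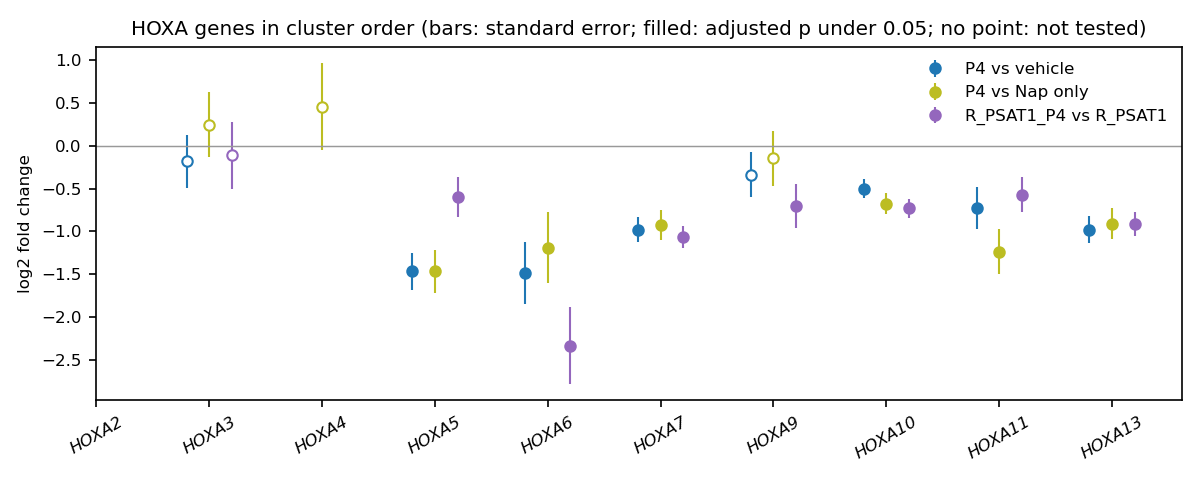
Log2 fold changes (vertical axis) of HOXA genes in the order of the cluster (horizontal axis, not to scale) in 3 comparisons, with standard errors as bars, filled points at an adjusted p under 0.05 by edgeR and no point where a gene was not tested. HOXA5, HOXA6, HOXA7, HOXA10, HOXA11 and HOXA13 are below 0 and filled in all 3 comparisons, and HOXA3 is open in all of them.

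Of 14 genes of FOXO and AKT signalling besides FOXO1, 13 were tested against vehicle control, 5 rose and 3 fell, with a median log2 fold change of 0.14, where 53% of all genes were called. PIK3CA, the catalytic subunit of the kinase above AKT, went from 55.0 ± 1.87 to 107 ± 12.0 CPM (log2 fold change 0.95, SE 0.09). AKT1 and AKT2 had log2 fold changes of -0.40 (SE 0.07) and -0.36 (SE 0.07).

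Although WNT4 and DKK1 could not be measured, 23 of 30 other Wnt ligands, receptors and DKK genes were tested against vehicle control. Of these, 5 rose and 11 fell, where 26.6% of all genes rose and 26.5% fell. Of 22 tested against Nap only, 6 rose and 7 fell, where 24.8% of all genes rose and 24.9% fell. Of 23 tested against control, 4 rose and 7 fell, where 26.8% rose and 28% fell. The list's median log2 fold change was -0.35 against vehicle control, -0.15 against Nap only and -0.21 against control. Between vehicle control and control the median was 0.12. WNT11, a ligand of noncanonical signalling, fell from 15.2 ± 2.30 to 2.24 ± 0.892 CPM (log2 fold change -2.81, SE 0.22), and the receptor FZD5 fell too (-0.66, SE 0.07). WNT11 fell less against Nap only (-1.94, SE 0.26), and its log2 fold change between vehicle control and control was 0.94 (SE 0.18). WNT5B rose from 0.392 ± 0.211 to 1.58 ± 0.230 CPM (2.12, SE 0.41), and DKK3, a relative of DKK1, rose by 0.78 on the log2 scale (SE 0.13).

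IHH was at or near 0 counts. Of 15 other hedgehog pathway genes, 13 were tested against vehicle control, 3 rose and 5 fell, where 53% of all genes were called. The list's median log2 fold change was -0.31 against vehicle control, -0.03 against Nap only and 0.02 against control. Between vehicle control and control the median was 0.29. The transcription factors GLI1 and GLI2 rose by 0.83 (SE 0.17) and 1.25 (SE 0.34) on the log2 scale, GLI1 from 4.90 ± 1.11 to 9.18 ± 0.387 CPM. Their relative GLI3, named after its value was seen, fell against vehicle control (-0.84, SE 0.27). GLI3 did not pass the test against Nap only (-0.03, SE 0.30, adjusted p = 0.93 by edgeR) or control (0.06, SE 0.27). Its log2 fold change between vehicle control and control was 0.91 (SE 0.26). The coreceptor BOC fell from 212 ± 11.2 to 84.6 ± 22.2 CPM (log2 fold change -1.35, SE 0.15) and the inhibitor SUFU fell too (-1.10, SE 0.16). SUFU did not pass the test against Nap only (log2 fold change -0.38, SE 0.17, adjusted p = 0.086 by edgeR).

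Of 10 osteopontin receptors, 8 were tested against vehicle control, 5 rose and 2 fell, with a median log2 fold change of 0.34, where 53% of all genes were called. The integrin subunits ITGAV and ITGB3, which pair to form an osteopontin receptor of the receptive epithelium, rose by 0.45 (SE 0.06) and 0.85 (SE 0.11) on the log2 scale, ITGB3 from 19.4 ± 2.71 to 36.1 ± 2.10 CPM. ITGB6 and ITGA4 fell, with log2 fold changes of -0.79 (SE 0.21) and -1.56 (SE 0.34). The ligand SPP1 itself did not pass the test in this comparison.

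**Figure D5:**
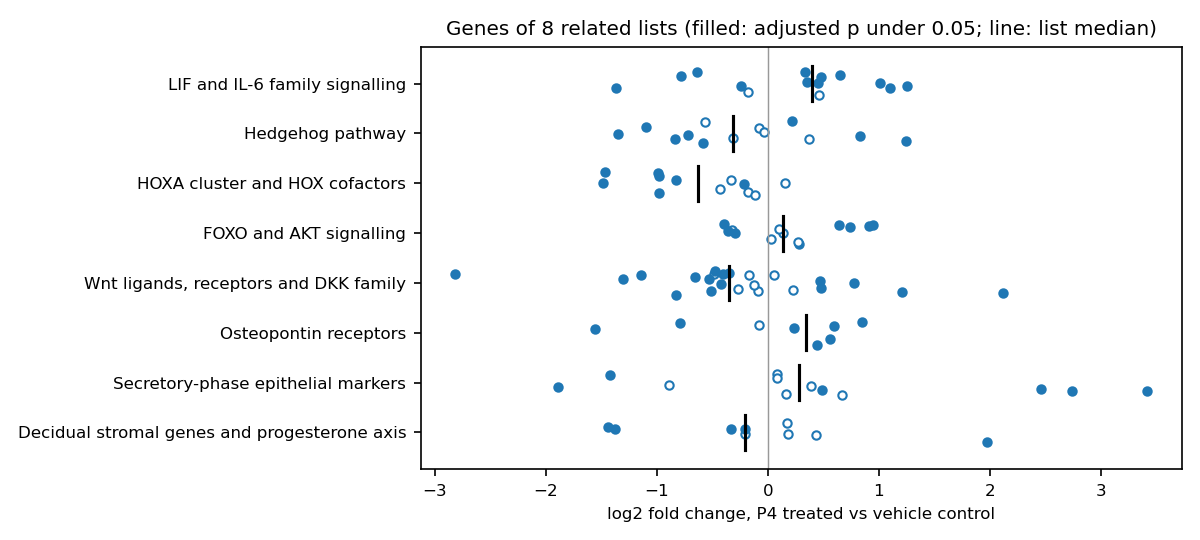
Log2 fold changes between P4 treated and vehicle control libraries (horizontal axis) for the genes of 8 related lists (vertical axis, points spread at random within a list), with filled points at an adjusted p under 0.05 by edgeR and a line at each list's median. The median of the HOXA list is lowest at -0.63 and that of LIF and IL-6 family signalling is highest at 0.40.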

How the data were processed

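RNA-seq counts of 17 Ishikawa cell libraries were used. The authors used Cutadapt for trimming and Subread for alignment, kept reads that mapped uniquely, counted them with featureCounts on genes of GENCODE release 31 (GRCh38), and deposited these counts unnormalized. Tool versions and the strand setting are not given in the sources used here. Of the columns of the count table, 0 were left unused.

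Differences were tested in R 4.3.3 with edgeR 4.0.16, by robust quasi-likelihood fits on the 2 groups compared, after filterByExpr with a minimum count of 10 and TMM scaling. Genes were called at a Benjamini-Hochberg adjusted p under 0.05. The alternatives were DESeq2 1.42.0, scaling by RLE or by the upper quartile, no filter or a minimum of 10 counts in each library, a fit over all 6 groups, a replicate block, and leaving out single replicates. The comparison of vehicle control with Nap only, and tests of the difference between fold changes, were added after seeing the data. The method was tested on simulated counts in which only a small part of the genes changed. With about every other gene called here, that test does not cover the TMM scaling. Python 3.11.15 with pandas 2.3.3, numpy 2.4.6 and scipy 1.17.1 was used for tables. Names, positions and exon lengths came from GENCODE 29 on GRCh38, which named 58542 of 60662 genes, 43928 of them with an identical version number. Of the 10 genes, HOXA11 alone had one. A table of gene names named 2054 more, and 66 had no name.

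The 10 genes and the related lists were chosen with earlier results of these data known. The text names all 10 genes, the 2 tested genes of smallest adjusted p in each direction of each list among those called between P4 treated and vehicle control, and the 3 genes most like each of the 10 genes with a mean of at least 1 CPM. A few results under this rule are not reported here. Library totals were 4999521 to 19704493. Floors of 3 counts cover counting error only, whereas standard errors of the fits also cover the spread between replicate cultures. In 6 libraries title and column name disagree.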

Additional observations from a re-analysis of the deposited data

Results flagged for a closer look

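FOXO1 stood apart because, by the column names, its difference between the R_PSAT1_P4 and R_PSAT1 libraries was larger than its difference between P4 treated and vehicle control libraries. The difference between these 2 log2 fold changes was 0.89 (SE 0.15, adjusted p = 0.0013 by edgeR, in a fit over all 6 groups), where 1.29% of 18232 genes were called. With Nap only in place of vehicle control as the reference for P4, the difference was 0.13 (SE 0.16, adjusted p = 0.99 by edgeR) and 0% of genes were called. The vehicle control libraries, at 25.6 to 26.8 CPM, were themselves above the control and Nap only libraries for FOXO1. Both tests were chosen after seeing the data and follow the column names, which the titles contradict. By the titles, the difference for FOXO1 is -1.29 (SE 0.15) against vehicle control and -2.05 (SE 0.17) against Nap only, and against vehicle control it is -2.46 (SE 0.36) for LIF, 1.19 (SE 0.15) for HOXA10 and 1.25 (SE 0.31) for HOXA11. For LIF, HOXA10, HOXA11, SPP1 and NR2F2 the difference by column names against vehicle control was 0.42 (SE 0.36), -0.22 (SE 0.15), 0.16 (SE 0.31), 0.62 (SE 0.34) and 0.82 (SE 0.62), and none passed the test. No group has 4 or more libraries, so single libraries were not tested for standing apart from their group.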

How the results depend on the processing

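LIF, HOXA10 and FOXO1 kept their direction and their call under every alternative run wherever they were called. HOXA11 lost its call with DESeq2 and without some single libraries in 3 comparisons, with adjusted p up to 0.11 for P4 treated against vehicle control, 0.096 for R_PSAT1_P4 against control and 0.056 for R_PSAT1_P4 against R_PSAT1 when a replicate was left out. SPP1 passed between P4 treated and vehicle control with upper-quartile normalization (adjusted p = 0.040) and without P4 treated 1 (0.031). The number of the 10 genes called between vehicle control and control was 1 with DESeq2, no filter or all 6 groups in the fit, and 1 to 2 with a replicate left out, SPP1 being lost. Between vehicle control and Nap only it was 1 with DESeq2 and 1 to 2 with a replicate left out. Of all genes, leaving out a replicate gave 5502 to 9719 calls for P4 treated against Nap only (5606 and 5502 without Nap only 1 or 2), 1908 to 3995 for vehicle control against control, 0 to 5 for Nap only against control and 0 to 5 for R_PSAT1 against control. Nap only against control gave 1 call with DESeq2, 3 with no filter and 1 with all 6 groups, and R_PSAT1 against control gave 14 with no filter.

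Nothing in the labels says that replicate numbers pair the libraries. Same-numbered libraries of P4 treated and vehicle control had deviations correlated at r from -0.043 to 0.049 over 15655 genes. The range was -0.090 to 0.20 for R_PSAT1 and control, and the 2 pairs of Nap only and control had 0.28 and 0.34. With the replicate block, P4 treated against vehicle control gave 8934 calls, Nap only against control 48 and R_PSAT1 against control 29. The log2 fold change of FOXO1 between Nap only and control was 0.092 with the block and 0.013 with upper-quartile normalization. That of SPP1 between R_PSAT1_P4 and control was -0.068 with upper-quartile normalization and -0.00075 with at least 10 counts in every sample.

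Log2 fold changes that changed sign when a replicate was left out were all of genes that had not passed the test. They ranged from -0.19 to 0.040 for NR2F2 between P4 treated and vehicle control. Between Nap only and control they ranged from -0.51 to 0.14 for LIF, -0.0094 to 0.42 for HOXA11, -0.14 to 0.081 for FOXO1 and -0.55 to 0.053 for SPP1. Between R_PSAT1 and control they ranged from -0.41 to 0.16 for LIF, -0.060 to 0.096 for HOXA10, -0.0082 to 0.048 for HOXA11, -0.17 to 0.052 for FOXO1 and -0.34 to 0.079 for SPP1. For SPP1 they ranged from -0.24 to 0.18 between R_PSAT1_P4 and control, and from -0.073 to 0.37 between R_PSAT1_P4 and R_PSAT1. In P4 treated against vehicle control libraries, upper-quartile normalization gave 3603 genes higher and 5244 lower, against 4397 and 4377 with TMM, and a median log2 fold change over all genes of -0.10 against -0.01. Depth limits NR2F2, DKK1, WNT4, IHH and PAEP.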

Other observations

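Of 17 further markers of the secretory-phase epithelium, 12 were tested between P4 treated and vehicle control, 4 rose and 2 fell, with a median log2 fold change of 0.28 against -0.01 over all genes tested, of which 26.6% rose and 26.5% fell. GADD45A, a stress-responsive growth regulator, went from 4.78 ± 0.988 to 54.1 ± 12.7 CPM (SD, n = 3; log2 fold change 3.42, SE 0.19), and CD55, a complement inhibitor, from 20.5 ± 2.29 to 137 ± 11.8 CPM (2.74, SE 0.10). CLDN4, a tight junction protein, fell from 84.1 ± 3.61 to 31.8 ± 5.02 CPM (-1.42, SE 0.10), and the secretoglobin SCGB2A1 from 3.94 ± 1.19 to 1.04 ± 0.987 CPM (-1.89, SE 0.49).

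Of 15 decidual stromal genes and genes of the progesterone axis, 9 were tested, 1 rose and 4 fell, with a median log2 fold change of -0.20, where 53% of all genes were called. The classical decidual products were not measurable, with PRL at 0 counts in every library and IGFBP1 at no more than 4. CEBPB, a transcription factor of decidualization, rose from 14.7 ± 1.84 to 57.1 ± 7.24 CPM (log2 fold change 1.98, SE 0.12). HAND2 had a log2 fold change of -1.38 (SE 0.27). PGR, the progesterone receptor, was at a mean of 111 CPM in control, 57.4 CPM in vehicle control and 21.7 CPM in P4 treated libraries, a log2 fold change of -1.44 (SE 0.14) between the last 2 groups.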
